A study of Mus musculus with 2 samples.

Results

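The interferon-induced transmembrane (Ifitm) genes Ifitm1, Ifitm2, Ifitm3 and Ifitm6 were followed across dendritic cells, macrophages, innate lymphoid cells (ILCs) and T cells of the mouse small intestine. They are 4 of the 31053 features in both libraries and were taken by symbol. They were chosen by their levels and their ratios between the libraries in earlier results of the same data, so these values are descriptions, without a test. The study measured transcripts in single cells of 2 libraries. The Zfp36_KO library (knockout here) was made from 4 Zfp36-/- mice and the WT library from 4 wild-type mice, all C57BL/6, with cells pooled by genotype before they were captured in droplets. Both libraries hold live CD45+ cells of the small-intestinal lamina propria. The sort kept cells with CD90.2 and CD127 on their surface and left out those with lineage markers, TCRβ or CD3. Zfp36 is the gene of tristetraprolin (TTP), which binds AU-rich stretches of many transcripts, among them those of cytokines, and hastens their decay. The deficiency is not limited to a cell type, the site of the targeted change and the age of the mice are not given in the sources used here, and the mice of a pool cannot be told apart.

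IFITM proteins are small membrane proteins of the cell surface and of endosomes that hinder the fusion of enveloped viruses with host membranes. Many are induced by interferons, and some cells carry them without infection. Ifitm3 is best known for holding back influenza virus in mice, Ifitm1 and Ifitm2 are its close relatives, and Ifitm6 is a mouse family member about which less is known. Dendritic cells carry antigen to lymph nodes and present it to T cells, and C1q-positive macrophages are phagocytes of the gut wall. Both are myeloid cells and not the ILCs at which the sort aimed.

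The 4 genes lie together on chromosome 7 of mm10, within chr7:140954837-141017924, a span of 63088 bases in the GENCODE M21 annotation. Ifitm1 (ENSMUSG00000025491) spans chr7:140967221-140969825 on the plus strand. Ifitm2 (ENSMUSG00000060591) spans chr7:140954837-140955987, Ifitm3 (ENSMUSG00000025492) chr7:141009586-141010770 and Ifitm6 (ENSMUSG00000059108) chr7:141015699-141017924, all on the minus strand. All 4 are protein coding, with 2 or 3 exons. The coding sequence of Ifitm1 was 82.1% identical to that of Ifitm2 and to that of Ifitm3, and Ifitm2 was 80.9% identical to Ifitm3, while Ifitm6 was between 65.7% and 68.8% identical to the other three. The libraries tag 3′ ends, and within the last 300 bases of the annotated transcripts the longest stretch shared by any pair was 26 bases, for Ifitm2 and Ifitm3. How the counting treated reads that match several members is not given in the sources used here. The predicted gene Gm45717 overlaps the first exon of Ifitm2 on the same strand, and had 0 UMIs in kept cells of either library.

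The promoters are shown because the windows taken for the members differ in the sequence by which interferon-responsive factors are known to bind. Windows from 250 bases before to 50 after the annotated start were taken from RefSeq on GRCm38.p6, and each member matched 1 window. Below are the last 120 bases of each window, 5′ to 3′, of which 70 lie before the start and 50 from it on. They are chr7:140968006-140968125 on the plus strand for Ifitm1, and chr7:140955912-140956031, chr7:141010695-141010814 and chr7:141016843-141016962 on the minus strand for Ifitm2, Ifitm3 and Ifitm6. Capitals mark a pair of GAAA blocks with 2 bases between them, the core of the interferon-stimulated response element (ISRE).
Ifitm1: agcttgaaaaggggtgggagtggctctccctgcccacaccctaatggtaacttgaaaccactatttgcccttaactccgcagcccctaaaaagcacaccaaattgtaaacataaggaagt
Ifitm2: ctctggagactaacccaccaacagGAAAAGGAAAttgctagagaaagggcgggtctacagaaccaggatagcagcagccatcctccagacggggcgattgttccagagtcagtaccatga
Ifitm3: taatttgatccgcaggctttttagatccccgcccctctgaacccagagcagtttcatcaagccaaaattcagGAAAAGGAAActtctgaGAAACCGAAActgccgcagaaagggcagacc
Ifitm6: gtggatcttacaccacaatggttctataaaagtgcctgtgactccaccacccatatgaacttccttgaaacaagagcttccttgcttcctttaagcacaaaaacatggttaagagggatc
The window of Ifitm3 held 2 such pairs, at 2 and 19 bases after the start, that of Ifitm2 held 1 at -46, and those of Ifitm1 and Ifitm6 held 0 in all 300 bases, on either strand. The GENCODE spans of Ifitm1 and Ifitm6 begin upstream of their windows, at chr7:140967221 and chr7:141017924, and those outer starts were not searched. The spans of Ifitm2 and Ifitm3 begin within their windows. Of 32851 windows of the same length, 3.44% held the pair. The letters TTC and GAA with 3 bases between them, the core of the gamma-activated site, were found once in the Ifitm3 window, overlapping the second ISRE-type pair by a few bases, and once in the Ifitm6 window, against 8.30% of all windows. These matches are letters in a window and not shown sites of binding. The longest annotated 3 prime untranslated regions of the members, of 139 to 305 bases, held 0 copies of TATTTAT, the core of the sequence that TTP binds. The shorter ATTTA was found 1 time each in Ifitm3 and Ifitm6 and 0 times in Ifitm1 and Ifitm2. Of 21186 genes 27.4% hold TATTTAT, but over regions of any length, so that share is not matched to these short regions.

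The knockout library held 3522 cell barcodes and 27733804 unique molecular identifiers (UMIs, each standing for 1 captured transcript), and the WT library 3593 barcodes and 24721524 UMIs. After filtering, 3334 knockout and 3360 WT cells were kept, with a median of 5336.5 and 5292.5 UMIs. The libraries shared 2 barcodes among all deposited and 1 among kept cells. Y-linked UMIs without Xist were seen in 448 knockout cells (13.4%) and in 0 WT cells, so at least part of the knockout pool was male and WT cells gave no sign of a male mouse. Scrublet marked 5 of 3339 knockout and 37 of 3397 WT cells as doublets. The knockout figure is too low to count as a working doublet call, and a mixed droplet could remain in any class unless it met 2 gates.

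Cells were put into classes by UMIs of marker genes, with no Ifitm gene among them, and cells that met more than 1 gate were in no class. Plet1-positive dendritic cells numbered 144 (4.32% of kept cells) in the knockout and 17 (0.506%) in WT, and C1q-positive macrophages 64 and 32. There were 820 knockout and 835 WT ILC3, 1143 and 639 ILC2, 86 and 92 ILC1/NK cells, and 12 and 883 T cells. Another 226 knockout and 346 WT cells met more than 1 gate, and 839 and 516 met none. Both the T cells and the myeloid cells go against the sort, and the T cells were nearly all in one library. The level of a gene in a class is its CPM, the UMIs of the gene summed over the cells and scaled by all UMIs of the class. Each ratio is the log2 of knockout over WT CPM, and its exact 95% interval comes from how the gene's UMIs divide between the libraries. With 1 library per genotype no test between genotypes was possible, and all intervals cover counting error only, not the spread between mice or between cells.

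Zfp36 itself was lower in the knockout in the lymphoid classes and in dendritic cells, but not beyond counting error in macrophages. It had 318 CPM in knockout against 1151 CPM in WT ILC3 (log2 ratio -1.86), 328 against 749 CPM in ILC2 (-1.19), 314 against 831 CPM in ILC1/NK cells (-1.41) and 66.4 against 272 CPM in T cells (-2.03). In dendritic cells it had 535 CPM in the knockout and 745 CPM in WT (-0.48, interval -0.66 to -0.30). In macrophages the levels were 1214 and 1261 CPM (-0.05, interval -0.22 to 0.12). The tags come from the 3′ end, so they do not show whether protein was made.

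Taken over all kept cells, the members were 50.4-fold (Ifitm1), 3.08-fold (Ifitm2), 4.79-fold (Ifitm3) and 4.30-fold (Ifitm6) higher in the knockout library. These values mix levels per cell with the numbers of cells. Dendritic cells held 67.8% of all Ifitm1 UMIs in the knockout and 53.3% in WT, 66.4% and 53.1% of those of Ifitm6, 44.4% and 24.3% of those of Ifitm3, and 34.0% and 7.43% of those of Ifitm2. Cells that met more than 1 gate held a further 21.1% to 28.6% in the knockout and 16.8% to 27.8% in WT, depending on the gene. The plot of levels by class shows the 4 genes side by side.

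**Figure D1:**
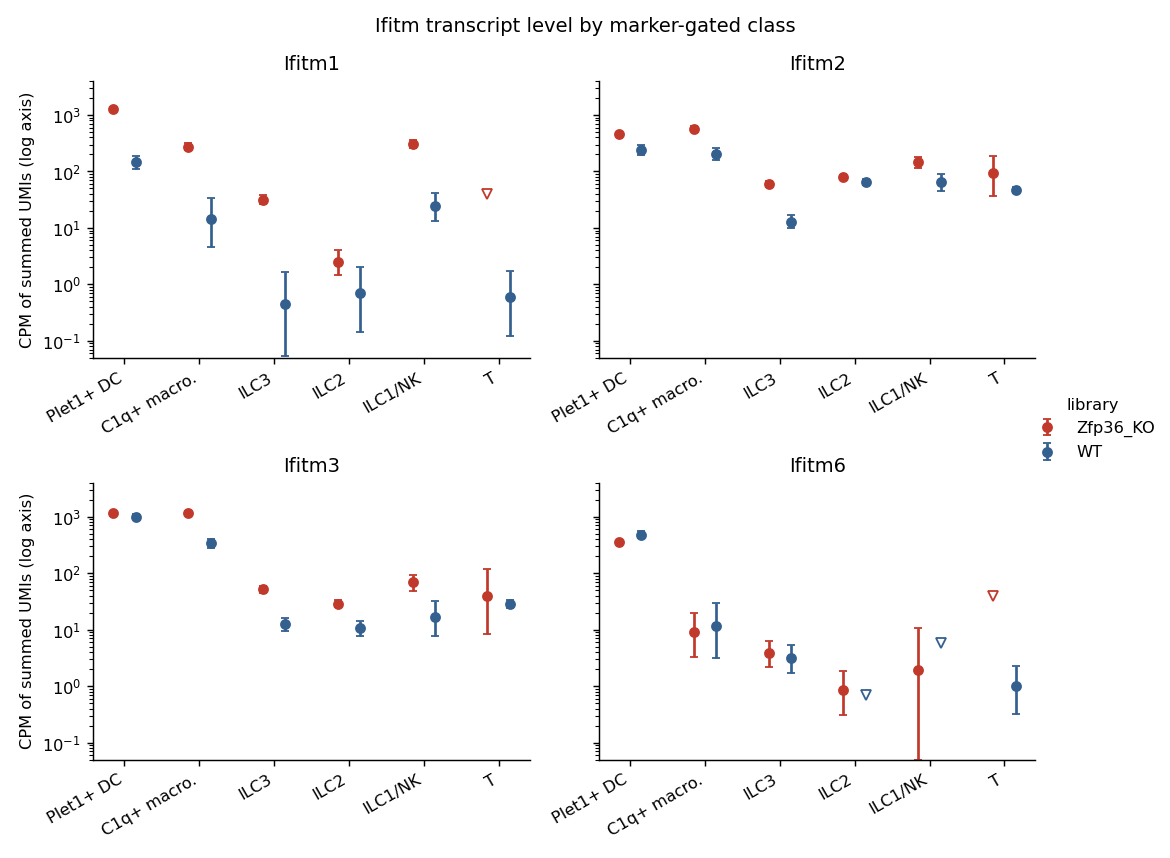
CPM of summed UMIs (log axis) of each Ifitm gene in 6 marker-gated classes, Zfp36_KO left of WT, with exact Poisson 95% intervals (counting error only, cut at the lower edge of the axis); open triangles mark the level of 3 counts where a library had 0 UMIs. Ifitm1 lies at 1261 CPM in knockout and 145 CPM in WT dendritic cells, while Ifitm6 lies at 351 and 481 CPM there and below 12 CPM in every other class with a UMI.

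In Plet1-positive dendritic cells the members did not move together: Ifitm1 was 8.70-fold higher in the knockout, Ifitm2 1.91-fold higher, Ifitm3 nearly level and Ifitm6 lower. Ifitm1 per cell had a lowest value of 0, a median of 970 and a highest value of 5131 CPM in the 144 knockout cells, against 0, 0 and 994 CPM in the 17 WT cells. The ranges overlap, with 10 knockout cells at 0, but most knockout cells lie above most WT cells. An Ifitm1 UMI was seen in 134 of 144 knockout cells (93.1%, exact binomial interval 87.6 to 96.6%) and in 8 of 17 WT cells (47.1%, 23.0 to 72.2%). Thinned to 2000 UMIs per cell, the shares were 67.4% and 17.6%. In ILC3, 1.59% of knockout and 0.24% of WT cells had an Ifitm1 UMI, at a median of 4386 and 4738 UMIs per cell, against 23441.5 and 21977 in dendritic cells. The summed level was 1261 CPM against 145 CPM, a log2 ratio of 3.12 (2.74 to 3.52). In WT, 2 cells held 20 and 16 of the 57 UMIs, and without the richest cell of each library the ratio was 3.63.

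Ifitm2 had 462 CPM in knockout and 242 CPM in WT dendritic cells, a log2 ratio of 0.94 (0.64 to 1.25). Its median per cell was 375 CPM against 134 CPM, although nearly all cells of both libraries had a UMI (137 of 144 and 16 of 17). Ifitm3 had 1178 CPM against 992 CPM (0.25, 0.10 to 0.40), with a median per cell of 1100 and 1031 CPM and lowest cells at 0 and 59.1 CPM. It was found in 143 of 144 knockout and 17 of 17 WT cells. Relative to the median ratio of all genes measured in the class, which was 0.16, the Ifitm3 ratio was 0.090 with an interval that spans 0 (-0.06 to 0.24).

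Ifitm6 had 351 CPM in knockout and 481 CPM in WT dendritic cells, a log2 ratio of -0.46 (-0.68 to -0.23), and a median per cell of 302 CPM against 427 CPM. It was seen in 139 of 144 knockout and 16 of 17 WT cells. This direction depended on the gate. When Plet1 was not required and the other dendritic markers needed at least 5 UMIs in place of 3 (179 and 42 cells), the ratio was 0.13 (-0.07 to 0.34). In thinned cells it was -1.19. All 4 members were found together in 126 of 144 knockout cells (87.5%) and in 8 of 17 WT cells (47.1%), and every other WT cell lacked Ifitm1. Of the 4 members, 1 was 2-fold or more higher and 0 were lower. In this class 10.1% of the 6588 genes with at least 50 UMIs were 2-fold or more higher and 2.5% lower. Relative to the class median these were 491 and 252 genes, in place of 667 and 165.

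**Figure D2:**
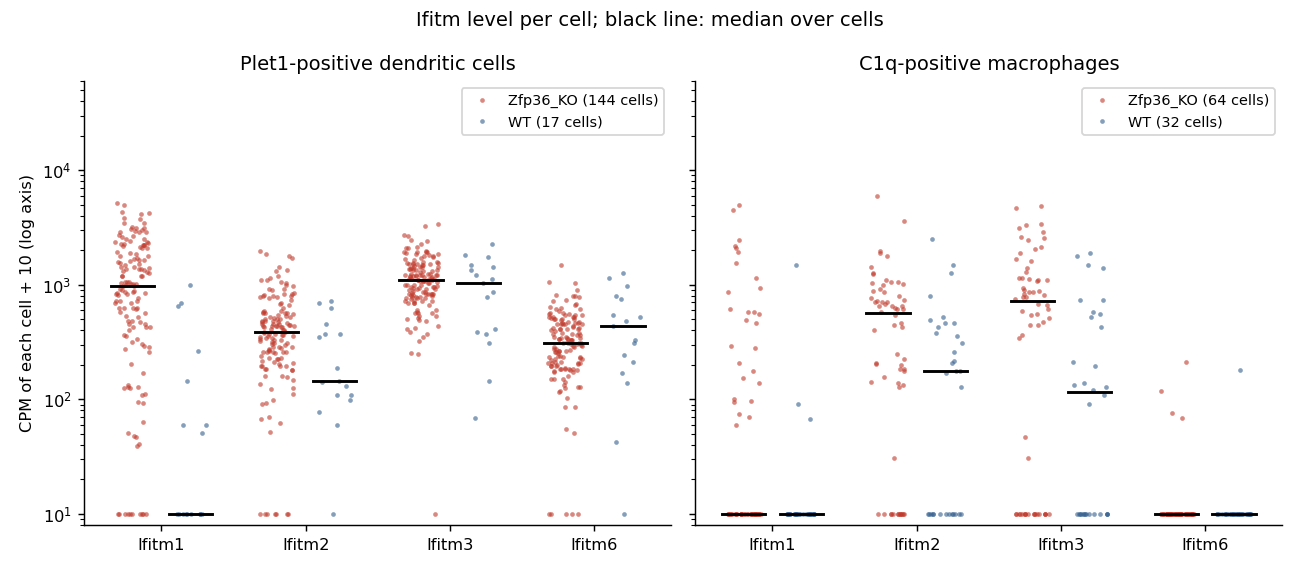
Level of each Ifitm gene in single dendritic cells (left) and macrophages (right), as CPM of the cell plus 10 on a log axis, Zfp36_KO left of WT, with 1 point per cell and a black line at the median. Knockout dendritic cells have a median Ifitm1 level of 970 CPM against 0 CPM in WT, whereas the Ifitm3 medians are 1100 and 1031 CPM.

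The dendritic cells of the 2 libraries carried the same defining markers but not in the same amounts. Flt3, the growth factor receptor of dendritic cells, was seen in 130 of 144 knockout and 16 of 17 WT cells, the integrin Itgax in 140 and 17, and the transcription factor Zbtb46 in 87 and 9. Plet1, a surface protein of some intestinal dendritic cells, had a median of 31 UMIs per knockout and 9 per WT cell. The summed macrophage list was lower in the knockout, at 1682 CPM against 7542 CPM, almost all of it the lysozyme gene Lyz2 (1538 and 7293 CPM). Per cell that list ranged between 0 and 22560 CPM in the knockout and between 118 and 28934 CPM in WT, with at most 3 and 2 C1q UMIs in any cell. Of the macrophage list, 8 of 8 markers were seen in the knockout and 7 of 8 in WT, and the neutrophil genes S100a8 and S100a9 were at 0 in both. Cd209a had 121 CPM in knockout and 478 CPM in WT cells. Xcr1, a marker of cross-presenting dendritic cells, was found in 4 of 144 knockout and 3 of 17 WT cells. The part of this make-up in the Ifitm values was not tested as a whole, but without cells that had an Xcr1 or Clec9a UMI the Ifitm1 ratio was 2.88 and the Ifitm6 ratio -0.60.

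Plet1 was used by the gate, so the cells were also divided by it. With 5 to 19 Plet1 UMIs, Ifitm1 had 1026 CPM in 35 knockout cells and 232 CPM in 9 WT cells. With 20 or more, it had 1318 CPM in 103 knockout cells and 0 UMIs in 3 WT cells. The cells just inside the gate, with 1 to 4 Plet1 UMIs, gave 1591 CPM (6 cells) against 119 CPM (5 cells), and cells just outside it, with 0 Plet1 UMIs, 101 CPM (44 cells) against 6.59 CPM (28 cells, 3 UMIs). Ifitm1 was therefore higher in the knockout at each Plet1 level. In the knockout it was far lower where Plet1 was absent, while the few WT cells were without an order along Plet1, since those with the most had 0 Ifitm1 UMIs. The knockout cells without Plet1 also differed in make-up and depth. An Xcr1 or Clec9a UMI was seen in 13 of 44 of them, at a median of 10676.5 UMIs per cell. At 20 or more Plet1 UMIs these values were 4 of 103 and 24231, so the drop is not read as a trend along Plet1 within 1 cell type. With Plet1 not required and at least 5 UMIs of the other dendritic markers, the Ifitm1 ratio was 3.91. Ifitm3 differed less across that border, with 629 CPM in knockout and 549 CPM in WT cells at 0 Plet1 UMIs. Ifitm6 had 340 CPM against 767 CPM at 20 or more Plet1 UMIs, and at the lower levels its intervals overlapped between the libraries.

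**Figure D3:**
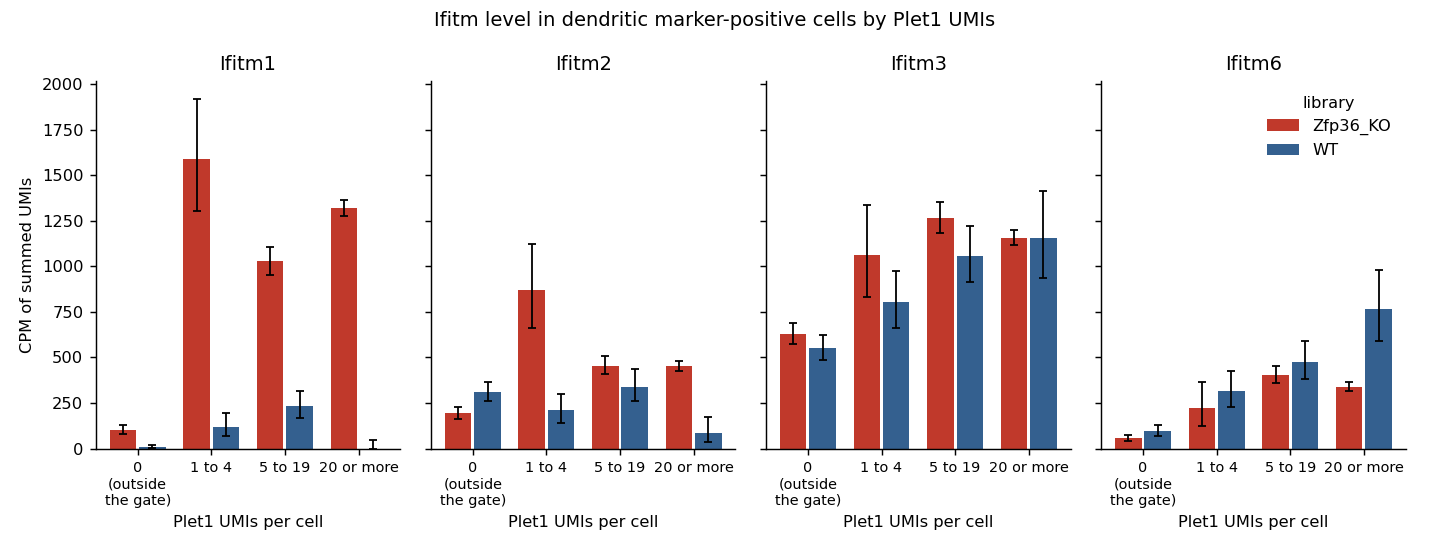
CPM of summed UMIs of each Ifitm gene in cells that carry the dendritic markers, by Plet1 UMIs per cell, Zfp36_KO left of WT, with exact Poisson 95% intervals. At 5 to 19 Plet1 UMIs Ifitm1 stands at 1026 CPM in knockout against 232 CPM in WT cells, and Ifitm3 at 1266 against 1058 CPM.

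The knockout pool holds cells with Y-linked UMIs and cells with Xist, which come from different mice. Ifitm1 had 2100 CPM in the 27 knockout dendritic cells with Y-linked UMIs and no Xist, and 1060 CPM in the 113 with Xist and no Y-linked UMIs, against 145 CPM in the 17 WT cells, all of which had Xist. Both knockout sets lay above WT, the one with Y-linked UMIs further. Ifitm2 had 764 and 395 CPM in the same sets, against 242 CPM in WT, and Ifitm3 had 1555 and 1067 CPM against 992 CPM. For Ifitm6 the sets were close, at 345 and 350 CPM, against 481 CPM in WT. Across the 144 knockout cells Ifitm1 went with Ifitm2 (Pearson r = 0.41, Spearman rho = 0.43, on log2 of CPM + 100) and with Ifitm3 (r = 0.345, rho = 0.42), but hardly with Ifitm6 (r = 0.10) or Plet1 (r = 0.12). These cells share a library and a mouse pool, so the coefficients only describe them.

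In C1q-positive macrophages Ifitm1, Ifitm2 and Ifitm3 were all higher in the knockout, and Ifitm6 was near the floor. Ifitm3 had 1153 CPM in knockout and 338 CPM in WT cells, a log2 ratio of 1.77 (1.49 to 2.06). Per cell it had a lowest value of 0, a median of 705 and a highest value of 4817 CPM in the 64 knockout cells, against 0, 104.8 and 1898 CPM in the 32 WT cells. The ranges overlap from 0 upwards, and 46 knockout and 18 WT cells had a UMI. Ifitm2 had 575 CPM against 206 CPM (1.48, 1.11 to 1.86), a median per cell of 553 CPM against 166 CPM, and a UMI in 51 and 19 cells. With every gate minimum doubled (71 and 34 cells, since fewer then met more than 1 gate) the ratios were 1.07 for Ifitm3 and 0.84 for Ifitm2, and without the richest 5% of cells that of Ifitm3 was 2.42.

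Ifitm1 had 274 CPM in knockout and 14.3 CPM in WT macrophages (4.26, 3.01 to 5.90), from 184 UMIs in 28 cells and 5 UMIs in 3 cells. The median cell was at 0 in both libraries, and 25.5% of the knockout UMIs came from 1 cell. The 3 richest knockout cells, with 47, 26 and 16 Ifitm1 UMIs, also held lymphoid transcripts. They had 8, 6 and 13 UMIs of Il7r and 1 of Gata3 each, and the second had 3 of Thy1. Whether these were mixed droplets was not tested. The ratio was 3.03 in thinned cells, 3.09 with equal weight for each cell, 3.59 with doubled gates, 5.20 without the richest cell of each library and 5.43 without the richest 5%. Ifitm6, with 6 knockout and 4 WT UMIs, differed from the other members: it was abundant in dendritic cells and almost absent here. Of the 3 members with at least 50 UMIs, 3 were 2-fold or more higher and 0 lower. That stands against 22.2% of 2884 genes higher and 2.5% lower, or 174 and 164 genes relative to the class median of 0.55 in place of 639 and 72. Relative to that median, the ratios of Ifitm1, Ifitm2 and Ifitm3 were 3.71, 0.93 and 1.22. Ifitm1 reached 50 UMIs through the knockout alone (184 against 5 UMIs).

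Markers of other cell types also differed in level between knockout and WT macrophages, some higher and some lower in the knockout. Monocyte genes (Ly6c2, Chil3, Ms4a4c, Ccr2) summed to 960 CPM in knockout against 169 CPM in WT macrophages, with 4 of 4 and 3 of 4 markers seen and a UMI in 41 of 64 and 13 of 32 cells. Per cell that list ranged between 0 and 3798 CPM in the knockout and between 0 and 894 CPM in WT. Among the 23 knockout and 19 WT macrophages with no monocyte UMI, the Ifitm3 ratio was 1.15 (0.41 to 1.93). That ratio rested on 46 of the 774 knockout and 24 of the 118 WT Ifitm3 UMIs. Most Ifitm3 UMIs of both libraries thus lay in macrophages with a monocyte UMI. In those without one, the Ifitm2 ratio was 1.599 (1.01 to 2.21, from 89 and 34 UMIs). The Ifitm1 ratio there was 4.59 (3.18 to 6.50, from 83 and 4 UMIs). B and plasma cell genes summed to 7527 CPM against 25937 CPM, with 5 of 5 markers seen in both and cells between 0 and 86201 CPM in the knockout and between 0 and 85462 CPM in WT. Without the 3 knockout and 4 WT cells that had at least 10 such UMIs, the ratios were 0.91 for Ifitm2, 1.39 for Ifitm3 and 3.70 for Ifitm1. S100a8 and S100a9 UMIs came from 1 knockout macrophage and 0 in WT.

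In ILC3, the lymphoid cells that make interleukin-22, the level of every member was low, and in the knockout most Ifitm1 and Ifitm3 UMIs came from a few cells. Ifitm1 had 31.7 CPM in the knockout and 0.453 CPM in WT (124 and 2 UMIs). In the knockout, 93 of the 124 UMIs (75.0%) lay in 1 of 820 cells and 13 cells had any, while in WT 2 of 835 cells had 1 each. That cell had 9893 UMIs, with 17 of Il7r, 6 of Thy1 and 81 of Il22, beside 31 of Ifitm2, 4 of Itgax, 1 of Flt3, 59 of Cd74, and 0 of H2-Aa and Lyz2. It thus carried ILC3 transcripts and few myeloid ones. The log2 ratio of 6.13 (4.24 to 9.19) rests on it and on 2 WT UMIs.

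Ifitm3 had 52.4 CPM in knockout against 12.5 CPM in WT ILC3 (2.07, 1.64 to 2.53), with a UMI in 29 of 820 and 16 of 835 cells. The 3 richest knockout cells, with 49, 47 and 36 Ifitm3 UMIs, had 31816, 17075 and 17935 UMIs in all. They held 15 Cd209a and 4 Flt3 UMIs in the first, 98 Lyz2 and 10 Csf1r UMIs in the second, and 124 Lyz2 and 18 Csf1r UMIs in the third. The richest WT cell had 23 Ifitm3 UMIs, 682 of Lyz2 and 540 of Cd74. These are dendritic and macrophage transcripts in cells that passed the ILC3 gate and no other.

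Cells with 5 or more UMIs over 29 myeloid markers, a limit set after the data had been seen, were 16 knockout and 35 WT ILC3. The Ifitm1-rich knockout cell, with exactly 5, is among them. They held 91.9% of the knockout Ifitm1 UMIs, 50% of those of Ifitm2, 87.3% of those of Ifitm3 and 86.7% of those of Ifitm6, and in WT 0%, 21.1%, 72.7% and 92.9%. In cells with 0 myeloid UMIs (626 and 558), Ifitm3 had 7.46 CPM in the knockout and 4.45 CPM in WT, with overlapping intervals (4.62 to 11.4 and 2.30 to 7.78). Ifitm1 had 7 and 0 UMIs there. Ifitm2 still differed beyond counting error, at 34.1 CPM in the knockout against 10.0 CPM in WT, a ratio of 1.77 (1.14 to 2.44).

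Over all ILC3, Ifitm2 had 60.8 CPM in the knockout and 12.9 CPM in WT (2.24, 1.81 to 2.68), with a UMI in 70 and 30 cells. With doubled gates (430 and 474 cells) the ratios of Ifitm2 and Ifitm3 were 3.02 and 3.11, and thinned that of Ifitm3 was 1.44. Thinned to 2000 UMIs, 4.85% of knockout and 1.46% of WT cells had one. Over the same thinned cells, 0.995% of knockout and 2.18% of WT ILC3 had a C1q UMI and 1.24% and 2.79% a Lyz2 UMI, transcripts that ILC3 should lack. The Ifitm2 share (3.47 to 6.57%) was above both in the knockout. In WT it was below both, with intervals that overlap (0.75 to 2.53% against 1.30 to 3.43% and 1.78 to 4.16%). The thinned Ifitm3 shares, 2.49% and 0.728%, stood in the same order. The knockout Ifitm3 interval (1.53 to 3.82%) overlapped those of C1q (0.43 to 1.95%) and Lyz2 (0.60 to 2.28%). The free RNA of the Ifitm genes themselves was not measured, and whether that of C1q and Lyz2 stands for it was not tested. Of the 3 members with at least 50 UMIs, 3 were 2-fold or more higher and 0 lower, against 2.81% and 1.35% of 9415 genes (147 and 188 genes relative to the class median of 0.16, in place of 265 and 127). Ifitm1 reached 50 UMIs through the knockout alone (124 against 2 UMIs), and 93 of the 124 lay in 1 cell. Without the richest cell of each library it had 31 and 1 UMIs, below that limit.

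**Figure D4:**
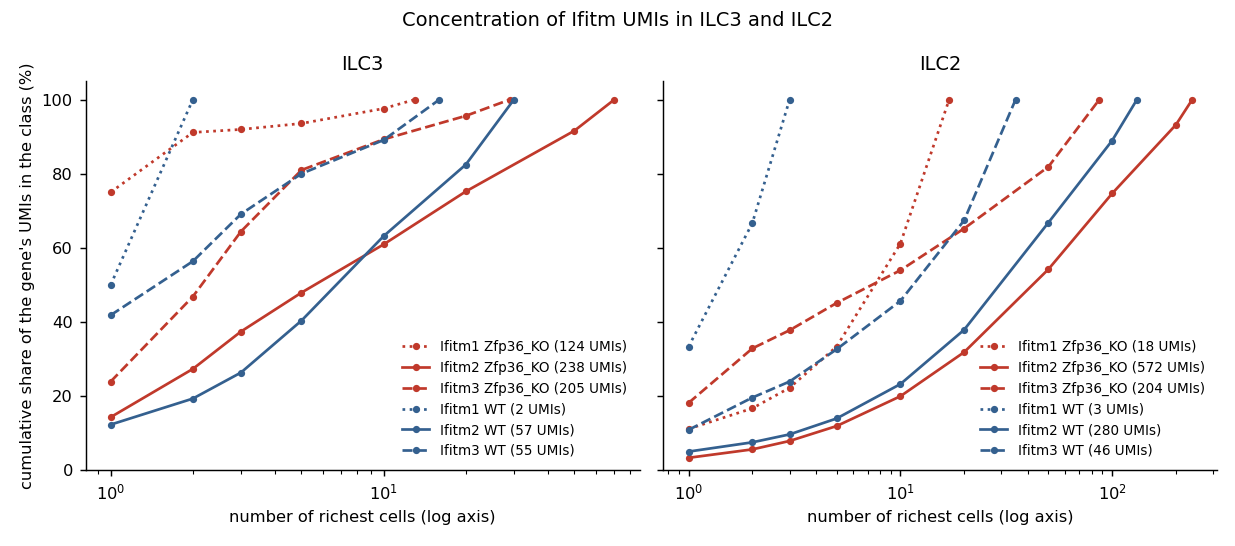
Cumulative share of a gene's UMIs held by its richest cells (number of cells on a log axis) in ILC3 and ILC2, Zfp36_KO in red and WT in blue, with dotted lines for Ifitm1, solid for Ifitm2 and dashed for Ifitm3. In knockout ILC3 the richest cell holds 75.0% of Ifitm1 UMIs, while in knockout ILC2 the richest cell holds 3.32% of those of Ifitm2.

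ILC2, the GATA3-dependent lymphoid cells of type 2 immunity, differed from ILC3 in that Ifitm2 was spread over many cells at similar levels in both libraries. It had 80.3 CPM in the knockout and 64.9 CPM in WT (0.31, 0.10 to 0.52, or 0.14 relative to the class median of 0.17). A UMI was seen in 239 of 1143 knockout cells (20.9%, 18.6 to 23.4%) and in 131 of 639 WT cells (20.5%, 17.4 to 23.8%). The richest cell held 3.32% and 5% of the UMIs. In cells with 0 myeloid UMIs the level was 76.1 CPM in 1000 knockout and 66.3 CPM in 535 WT cells. Thinned, 10.9% and 9.19% of cells had an Ifitm2 UMI, against 0.533% and 0.792% with a C1q UMI. Per Ifitm3 UMI there were 2.80 Ifitm2 UMIs in knockout and 6.09 in WT ILC2, against 0.392 and 0.244 in dendritic cells and 0.499 and 0.610 in macrophages, a proportion unlike that of the myeloid classes.

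Ifitm3 in ILC2 had 28.6 CPM in the knockout and 10.7 CPM in WT (1.43, 0.96 to 1.92), in 87 and 35 cells. Of the knockout UMIs, 18.1% came from 1 cell with 113 Lyz2, 107 Apoe and 32 Ccr2 UMIs, and 41.2% from the 17 cells with 5 or more myeloid UMIs, against 4.35% from 18 such cells in WT. In cells with 0 myeloid UMIs Ifitm3 had 15.8 CPM (12.7 to 19.3) in the knockout and 9.64 CPM (6.67 to 13.5) in WT, and the ratio over those cells was 0.71 (0.13 to 1.32). Ifitm1 had 18 knockout and 3 WT UMIs, nearly all as single UMIs in separate cells. Ifitm6 had 6 and 0, at least 1.21-fold higher against a floor of 3 counts over the WT class. Of the 2 members with at least 50 UMIs, 1 was 2-fold or more higher and 0 lower, against 3.49% and 0.811% of 9250 genes (192 and 125 genes relative to the class median, in place of 323 and 75). The 1 was Ifitm3, with 204 knockout and 46 WT UMIs.

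In ILC1/NK cells, the T-bet- or Eomes-positive cytotoxic lymphoid cells, Ifitm1 stood out, but again through a few cells. It had 308 CPM in the knockout and 24.7 CPM in WT (3.64, 2.83 to 4.58), from 162 UMIs in 9 of 86 cells and 13 UMIs in 2 of 92 cells. The 2 richest knockout cells held 78 and 56 UMIs, and had 43504 and 19926 UMIs in all, 293 and 250 of Cd74, 129 and 53 of H2-Aa, and 6 and 2 of Flt3. The third, with 11 Ifitm1 UMIs among 4291, had 0 myeloid UMIs, 1 Cd74 UMI and 1 of Tbx21. Both WT cells, with 9 and 4, had 0 Cd74 and 2 Tbx21 UMIs each. When every gate minimum was doubled, the ratio turned to -1.18 (-3.02 to 0.40), from 5 knockout and 13 WT UMIs, and in thinned cells it was 1.78. In cells with 0 myeloid UMIs Ifitm1 had 48.1 CPM in knockout and 44.2 CPM in WT cells, from 13 and 9 UMIs.

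Ifitm2 had 144 CPM in knockout and 64.5 CPM in WT ILC1/NK cells (1.16, 0.56 to 1.79), with a UMI in 33 of 86 cells (38.4%, 28.1 to 49.5%) and 15 of 92 cells (16.3%, 9.42 to 25.5%). In cells with 0 myeloid UMIs it had 133 CPM (93.3 to 184) in the knockout and 59.0 CPM (30.5 to 103) in WT, a ratio of 1.18 (0.20 to 2.25). Thinned, 18.8% and 10.0% of cells had an Ifitm2 UMI, against 0% (interval up to 4.25%) and 3.33% with a C1q UMI. Ifitm3 had 36 and 9 UMIs (68.4 and 17.1 CPM), and 33.3% of the knockout UMIs came from 1 cell, the second of the Ifitm1-rich ones. Ifitm6 had 1 and 0 UMIs. Of the 2 members with at least 50 UMIs, 2 were 2-fold or more higher and 0 lower, against 5.53% and 1.32% of 3562 genes (121 and 88 genes relative to the class median of 0.16, in place of 197 and 47). Ifitm1 reached 50 UMIs through the knockout alone (162 against 13 UMIs), with 78 and 56 of the 162 in 2 cells. Its ratio turned to -1.18 with doubled gates, so this count rests on few cells.

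T cells were almost confined to WT, with 12 knockout cells, so the levels are chiefly a description of 883 WT cells. Ifitm2 had 92.9 CPM in the knockout (7 UMIs, 6 of them in 1 cell) and 46.8 CPM in WT, where 236 UMIs lay in 114 cells. Ifitm3 had 39.8 CPM (3 UMIs) and 28.2 CPM (142 UMIs in 58 cells), and both ratios had intervals that span 0 (-0.34 to 2.06 and -1.80 to 2.08). In WT, the 79 T cells with 5 or more myeloid UMIs held 13.1% of the Ifitm2 and 19% of the Ifitm3 UMIs. In the 607 WT T cells with 0 myeloid UMIs Ifitm2 had 48.7 CPM and Ifitm3 18.3 CPM. Thinned, 7.49% and 4.26% of WT T cells had a UMI of Ifitm2 and Ifitm3, against 3.46% with a C1q UMI and 1.27% with a Lyz2 UMI. The Ifitm3 interval (3.02 to 5.83%) overlapped that of C1q (2.34 to 4.90%). Ifitm1 and Ifitm6 had 0 UMIs in the knockout and 3 and 5 in WT. In these 12 cells a count of 0 allows up to 39.8 CPM by the floor of 3 counts, well above the WT levels.

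The order of classes differed between the members. Ifitm1 was highest in dendritic cells in both libraries. In the knockout, ILC1/NK cells (308 CPM) and macrophages (274 CPM) came next with overlapping intervals, followed by ILC3 and ILC2. These lymphoid places rest on few cells: with 0 myeloid UMIs the levels were 48.1 CPM in ILC1/NK cells, 2.49 CPM in ILC3 and 2.01 CPM in ILC2, and the intervals of ILC3 and ILC2 overlapped. In WT ILC1/NK cells and macrophages again overlapped, and ILC2, T cells and ILC3 were all below 1 CPM. Ifitm2 was highest in macrophages and then dendritic cells of the knockout (575 and 462 CPM), while in WT these overlapped (206 and 242 CPM). Below them, knockout ILC1/NK cells (144 CPM) and T cells overlapped, as did T cells, ILC2 (80.3 CPM) and ILC3 (60.8 CPM), although ILC2 and ILC3 did not overlap each other. In WT, ILC2 and ILC1/NK cells overlapped at 64.9 and 64.5 CPM, T cells at 46.8 CPM overlapped ILC1/NK cells but not ILC2, and ILC3 was lowest at 12.9 CPM. Ifitm3 was equal within counting error in knockout dendritic cells and macrophages (1178 and 1153 CPM), but 992 CPM against 338 CPM in WT. In the lymphoid classes it lay between 28.6 and 68.4 CPM in the knockout and between 10.7 and 28.2 CPM in WT. Ifitm6 was above 12 CPM in dendritic cells and in no other class of either library with a UMI.

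Since IFITM genes are induced by interferons, 42 other interferon-stimulated genes were set beside them. In dendritic cells 11 of the 31 with at least 50 UMIs were 2-fold or more higher in the knockout and 0 lower, with a median log2 ratio of 0.67 against 0.16 for all genes. Over all genes of the class 10.1% were higher and 2.5% lower. The class held 3322401 UMIs in the knockout and 393124 in WT. Genes thus reached 50 UMIs mostly through the knockout, and genes low there could drop out. This limit holds for the list, the members and all genes alike. The guanylate-binding protein gene Gbp2 was 5.85-fold higher (841 and 17 UMIs), the nucleotide-degrading Samhd1 3.07-fold and Oasl2, of the oligoadenylate synthetase family, 3.20-fold. Ly6a (18.3-fold, log2 interval 1.70 to 9.51) and Igtp (8.76-fold, 0.61 to 8.45) were also higher, each on 1 WT UMI. Zbp1, Gbp7, Ifi47, Ifih1 and Trim30a were between 2.18-fold and 3.01-fold higher, and the interval of Ifit2 spanned 0. Irf8, a transcription factor of cross-presenting dendritic cells, was 12.5-fold lower (22.9 against 285 CPM), and Jak2, a kinase used by the interferon gamma receptor among others, was 2.30-fold higher. They were the 2 of 10 measured genes of the interferon receptor and signal list past 2-fold.

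In macrophages 16 of 25 measured genes of the interferon-stimulated list were higher and 0 lower, with a median of 1.22 against 0.55 for all genes. Over all genes of the class 22.2% were higher and 2.5% lower. This class also held more UMIs in the knockout, 671066 against 348806, so the limit given for dendritic cells holds here to a lesser degree. Gbp2 had 212 knockout and 1 WT UMIs (log2 ratio 6.78, 4.29 to 12.1), and Irgm1 and Ifih1 were 8.58-fold and 9.62-fold higher on 4 WT UMIs each. Ifngr2, a chain of the interferon gamma receptor, was 3.15-fold higher. It was the 1 of 8 measured genes of the receptor list past 2-fold, a share below that of all genes in the class. In ILC3 2.81% of all genes were higher and 1.35% lower. Of the interferon-stimulated list, 6 of 36 were higher there and 0 lower (median 0.53 against 0.16). Among them were Ly6a (16.3-fold) and the interferon-induced GTPase genes Tgtp2 (4.71-fold), Tgtp1 (3.55-fold) and Iigp1 (3.40-fold).

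In ILC2 3.49% of all genes were higher and 0.811% lower. Of the interferon-stimulated list, 9 of 38 were higher and 0 lower (median 0.57 against 0.17), led by Iigp1 (4.23-fold), Tgtp2 (4.03-fold) and Ifi27l2a (3.88-fold). Of the receptor list, Irf8 was 3.66-fold higher there, the 1 of 10 measured genes past 2-fold, while 0 were past it in ILC3 and ILC1/NK cells. In ILC1/NK cells 5.53% of all genes were higher and 1.32% lower. Of the interferon-stimulated list, 3 of 19 were higher and 0 lower (median 0.45 against 0.16), namely Ly6a, Gbp2 and Ifih1. The members were not uniformly the foremost of these genes: in dendritic cells Ifitm1 (3.12) lay below Ly6a and Igtp and above all other measured genes of the list, and Ifitm3 (0.25) lay below its median. In ILC2, Ifitm2 (0.31) lay below the median of the list and Ifitm3 (1.43) above it. Earlier results of these libraries were known when the list was made, so these counts are descriptions.

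**Figure D5:**
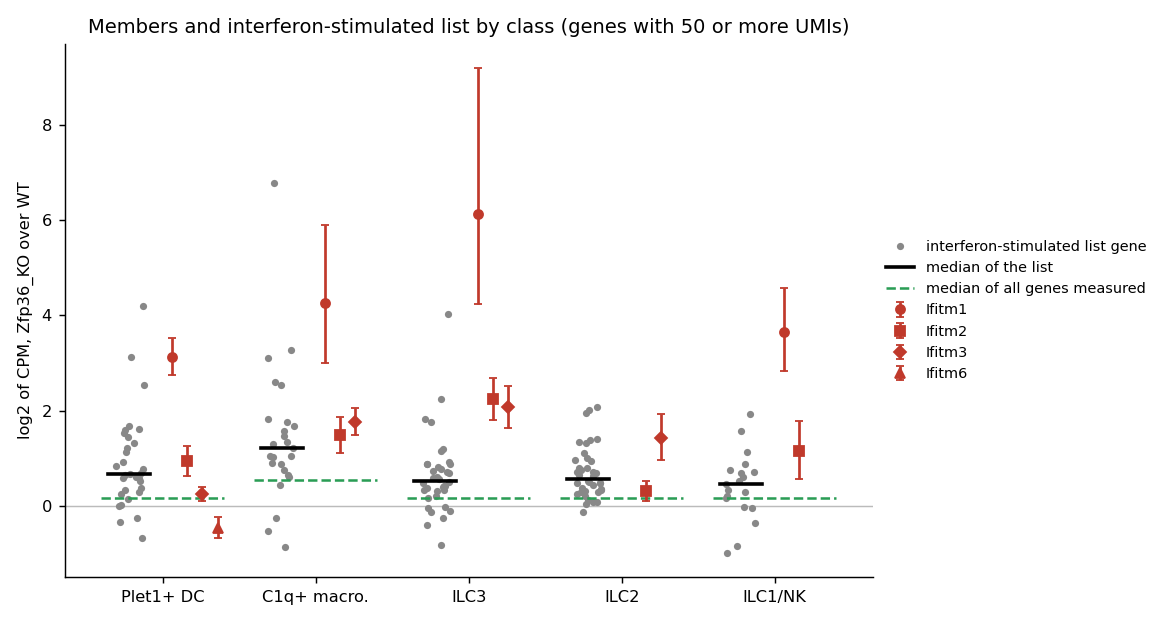
log2 ratio of Zfp36_KO over WT CPM for interferon-stimulated genes with at least 50 UMIs (grey points, black line at their median) and for the Ifitm genes with at least 50 UMIs (red, with exact 95% intervals of counting error) in 5 classes; the dashed green line is the median of all genes measured. In dendritic cells the list has a median of 0.67 and Ifitm1 lies at 3.12, Ifitm3 at 0.25 and Ifitm6 at -0.46.

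The genes whose levels ran most like each member were found over 10 points, the class-by-library groups with at least 20 cells, by Pearson correlation of log2(CPM + 1) among 11332 genes. The WT dendritic cells, with 17 cells, are not among these points. For Ifitm1 they were Rel (r = 0.967), Efhd2, Dusp22, Sft2d1 and Itpripl2. For Ifitm2 they were Ms4a6c (0.948), Cd300lf, Cd274, St3gal4 and Cdc34. For Ifitm3 they were Nostrin (0.981), Htr7, Lipa, Tlr13 and Clec4a2, and for Ifitm6 Ctc1 (0.982), Slc48a1, Mylk, Acox3 and Arl8b. No gene appears for more than 1 member, but the lists are very short beside the 11332 genes considered. How much overlap such short lists would share by chance was not tested, so its absence is not read as a difference between the members. The points share 2 libraries, and knockout dendritic cells are the highest point for Ifitm1, Ifitm3 and Ifitm6.

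The other family members in the files were rare. Ifitm5, a bone-associated member, had 43 UMIs in knockout and 14 in WT kept cells, Ifitm10 had 62 and 76, and Ifitm7 had 0 in both.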

How the data were processed

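The authors ran Cell Ranger 3.1.0, per the file headers, with mm10 as the genome, per the submitters' processing notes. What they deposited are UMI counts by gene and barcode, not normalized. Libraries were made with the 10x Genomics 3′ v2 kit, per the labels' protocols. The annotation used for counting is not given in the sources used here. Barcodes with under 500 genes or over 10% mitochondrial UMIs were removed, as were Scrublet doublets of each library (scanpy 1.11.5). All counts are per library, 1 per genotype.

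Gates on UMIs were these. Dendritic cells had at least 1 Plet1 UMI and at least 3 UMIs in at least 2 of Flt3, Zbtb46, Itgax, Ciita, H2-DMb2, Cd209a, Xcr1 and Clec9a. Where Plet1 was not required, the minimum over these other genes was 5 UMIs. Macrophages had at least 5 C1qa, C1qb and C1qc UMIs in at least 2 of these genes. T cells had at least 2 Cd3d, Cd3e and Cd3g UMIs and 1 of Trac, Cd5 or Cd6. ILC3 had 1 of Il23r, Il22, Ccr6, Ncr1 or Il1r1. ILC2 had Gata3 and 1 of Il17rb, Il1rl1, Klrg1 or Hs3st1. ILC1/NK cells had Tbx21 or Eomes and 1 of Ncr1, Klrb1c, Klrb1b or Klrd1. The ILC gates also used a marker that is not reported here.

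Levels are CPM of summed UMIs with exact Poisson 95% intervals (scipy 1.17.1), and shares have exact Clopper-Pearson intervals. A list gene was counted at 2-fold with at least 50 UMIs over both libraries, and could be named where its interval also excluded 0. The genes named are the 4 members, the other Ifitm symbols, Zfp36, the gate and marker genes, the listed genes and, for each member, the 5 most alike. Counts of genes past 2-fold were planned for classes with at least 50 cells in each library, and those of dendritic cells and macrophages were added. Cells were thinned to 2000 UMIs for shares at equal depth. The members, gates and lists were chosen with earlier results of these data known. The computation was tested on simulated counts.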

Additional observations from a re-analysis of the deposited data

How the results depend on the processing

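No paired analysis was possible because each genotype has 1 library, and no replicate could be left out. The alternatives below reuse largely the same cells, so their agreement is not independent support. In dendritic cells, the Ifitm1 ratio (log2, knockout over WT) of 3.12 was 3.63 without the richest cell of each library. It was 2.68 in cells thinned to 2000 UMIs and 3.91 when Plet1 was not required. It was above 0 in 12 of 12 alternatives, of which keeping the Scrublet doublets left the same 144 and 17 cells. Without the Plet1 requirement, where the other dendritic markers needed at least 5 UMIs in place of 3, Ifitm2 was 0.56, Ifitm3 0.51 and Ifitm6 0.13. Relative to the median of all genes Ifitm3 was 0.090. Ifitm6 was -1.19 when thinned and -0.68 with at least 5 Plet1 UMIs, an alternative chosen after seeing the data. In macrophages, Ifitm2 was 0.84 with gate minimums doubled, 1 with equal weight for each cell, 0.99 when thinned, 0.93 relative to the median, 0.94 in cells with Xist and no Y-linked UMI, and 0.91 with under 10 B and plasma UMIs. Ifitm3 was 1.07 with gates doubled, 2.20 without the richest cell, 2.42 without the richest 5% of cells, 1.22 relative to the median, 1.39 with under 10 B and plasma UMIs and 1.15 with no monocyte UMI. Both of these cell limits were chosen after seeing the data. The doubled gates enlarged dendritic cells to 159 knockout and 20 WT cells and macrophages to 71 and 34.

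With 200 UMIs per gene in place of 50, fewer genes were measured, and those past 2-fold were 179 higher and 34 lower in dendritic cells, 115 and 24 in macrophages, 100 and 49 in ILC3, 126 and 36 in ILC2, and 11 and 9 in ILC1/NK cells. In lymphoid classes the Ifitm1 ratio of ILC1/NK cells turned to -1.18 with doubled gates, where 5 knockout and 13 WT UMIs remained. The ratio of Ifitm2 was above 0 in each alternative run for ILC3 (1.77 to 3.02) and ILC2 (0.12 to 0.41), and that of Ifitm3 in ILC3 lay between 0.74 and 3.11. In T cells the Ifitm2 ratio lay between -1.39 and 1.18. Alternatives in which a library had 0 UMIs gave no value, which holds for Ifitm6 in ILC2, ILC1/NK and T cells and Ifitm1 in T cells throughout. The count over T cells was not run, with 12 knockout cells. Levels near 1 CPM rest on single UMIs, and the 17 WT dendritic cells limit every ratio of that class. The spread between mice was not measured.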

Other observations

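Cells outside the classes also carried Ifitm transcripts. The 839 knockout and 516 WT cells that met no gate held 13.2% and 32.9% of the Ifitm3 UMIs of kept cells. Of these UMIs, 89.1% in the knockout and 65.9% in WT lay in the 153 and 82 cells with 5 or more myeloid marker UMIs. Among the 226 knockout and 346 WT cells that met more than 1 gate, 52 and 8 met the dendritic gate and held 1142 of 1302 and 16 of 18 Ifitm1 UMIs.

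In ILC3 of the knockout, cells with Y-linked UMIs and no Xist (109 cells) had 16.7 CPM of Ifitm2 and 8.37 CPM of Ifitm3, against 12.6 and 10.7 CPM in WT cells with Xist and no Y-linked UMI (828 cells). Knockout ILC3 with Xist and no Y-linked UMI (640 cells) had 51.8 and 33.7 CPM. The intervals of the knockout cells with Y-linked UMIs (7.23 to 33.0 and 2.28 to 21.4 CPM) include the WT levels, and lie below those of the knockout cells with Xist. Few cells stand behind this gap, since the 103 Ifitm3 UMIs of the knockout Xist set lay in 22 cells. Over all knockout ILC3, 16 cells with 5 or more myeloid UMIs held 50% of the Ifitm2 and 87.3% of the Ifitm3 UMIs. How those 16 cells divide between the sets was not tested. Cells with both or neither kind of UMI are in none of these sets. Of the 205 Ifitm3 UMIs of knockout ILC3, the Y-linked set held 4 and the Xist set 103. Of the 238 Ifitm2 UMIs they held 8 and 158. The rest lay in cells outside both sets, so the gap is not a full account of knockout ILC3. In ILC2 the same split gave 92.9 CPM of Ifitm2 with Y-linked UMIs (176 cells) and 77.9 CPM with Xist (897 cells), against 65.2 CPM in WT (636 cells). The sex of the mice and differences between single mice cannot be told apart here.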
